A study of Mus musculus with 2 samples.

Results

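The expression of 50 genes for the core machinery and the best-known regulators of pre-mRNA splicing was examined in mouse leukemic stem cells (LSCs) from a model of chronic myeloid leukemia (CML). The genes were taken by symbol from the 23284 gene symbols listed, as those that begin with Srsf and a digit, with Hnrnp, with Snrp and one of the letters a to g or a digit, or with Sf3a or Sf3b and a digit, together with U2af1 and U2af2. They fall into 5 classes, with 11 SR proteins, 18 hnRNP proteins, 11 snRNP proteins, 8 SF3 subunits and 2 U2AF subunits. The rule used no measured value.

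RNA-seq was performed on CML LSCs of C57BL/6J background, as 1 WT library and 1 STAP-1 knockout library, called the KO library from here on. STAP-1 is a signal-transducing adaptor protein, and the knockout mice carry a targeted disruption of its gene. In both groups, LSK cells (lineage-negative, Sca-1-positive, c-Kit-positive marrow cells) were transduced with a pMSCV retrovirus that carries human BCR-ABL and green fluorescent protein (GFP) and were transplanted with normal marrow cells into lethally irradiated congenic recipients, from which donor-type GFP-positive LSK cells were sorted. The leukemia is therefore driven by a viral promoter in transplanted cells, in the KO group the donor cells alone lack STAP-1, and the number of mice behind each library is not given in the sources used here. With 1 library per genotype there is no replicate check, no test of the genotype was possible, and no p-value is given.

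Pre-mRNA splicing removes introns in 2 steps that are carried out by the spliceosome, a machine built from small nuclear ribonucleoproteins (snRNPs) and many further proteins. The U1 snRNP recognizes the 5′ splice site, the U2AF heterodimer binds the polypyrimidine tract and the 3′ splice site, and the U2 snRNP, with its SF3A and SF3B complexes, then engages the branch point. SR proteins bind exonic enhancers and mostly promote exon inclusion, whereas many hnRNP proteins bind silencers and favour exon skipping, so that the ratio of both kinds shapes alternative splicing. Dividing cells need a steady supply of these proteins, and SRSF2, U2AF1 and SF3B1 are mutated recurrently in human myeloid neoplasms.

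The values are FPKM (fragments scaled to transcript length and to the mapped total), a level per length, so that levels can be set side by side between genes. The log2 ratio is the log2 of KO over WT with 0.1 FPKM added to each, and a gene was counted as higher or lower when its FPKM differed by 2-fold or more and no library was under 0.1 FPKM. Of the low values, 47.7% in the WT and 48.5% in the KO library lay on steps of whole reads, which gave an effective depth of 7500000 reads for the WT library and 10470000 reads for the KO library, and 3 reads of a transcript of 2000 bases corresponded to 0.223 and 0.16 FPKM. The targeted gene Stap1 was at 62.0 FPKM in the WT and 0.309 FPKM in the KO library. The sort marker gene Kit was at 468 and 30.1 FPKM, and mast cell markers took 7.55% of all FPKM in the WT and 0.709% in the KO library.

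Of the 50 genes, 49 reached 0.1 FPKM in both libraries, and the same 49 averaged 1 FPKM or more over the libraries. Srsf12 was listed at 0.0488 FPKM in the WT library, about 1 read, and at 0 in the KO library (a count of 0 allows up to 3 reads). Of the 49 genes, 15 were at least 2-fold higher in the KO library, 0 were at least 2-fold lower, and 34 were neither. Among all 12507 genes at 0.1 FPKM or more in both libraries, 12.3% were at least 2-fold higher and 22.9% were at least 2-fold lower. With a floor of 1 FPKM the shares were 10.6% and 19.3% of 10108 genes, and the splicing genes again gave 15 and 0. The 2 sets differ in level. The splicing genes had a median of 98.0 FPKM in the WT and 121 FPKM in the KO library, against 16.3 and 14.0 FPKM for all genes that averaged 1 FPKM or more. The log2 ratio was above 0 in 42 of the 49 splicing genes, whereas it was above 0 in 48.3% of the 10974 genes that averaged 1 FPKM or more. The median log2 ratio was 0.75 for the splicing genes and -0.04 for all genes. Their summed level went from 5942 FPKM, or 0.915% of all FPKM, in the WT library to 9944 FPKM, or 1.65%, in the KO library. The order of the genes was much the same in both libraries (Spearman rho = 0.93 across 49 genes, which share the libraries and are not independent).

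**Figure D1:**
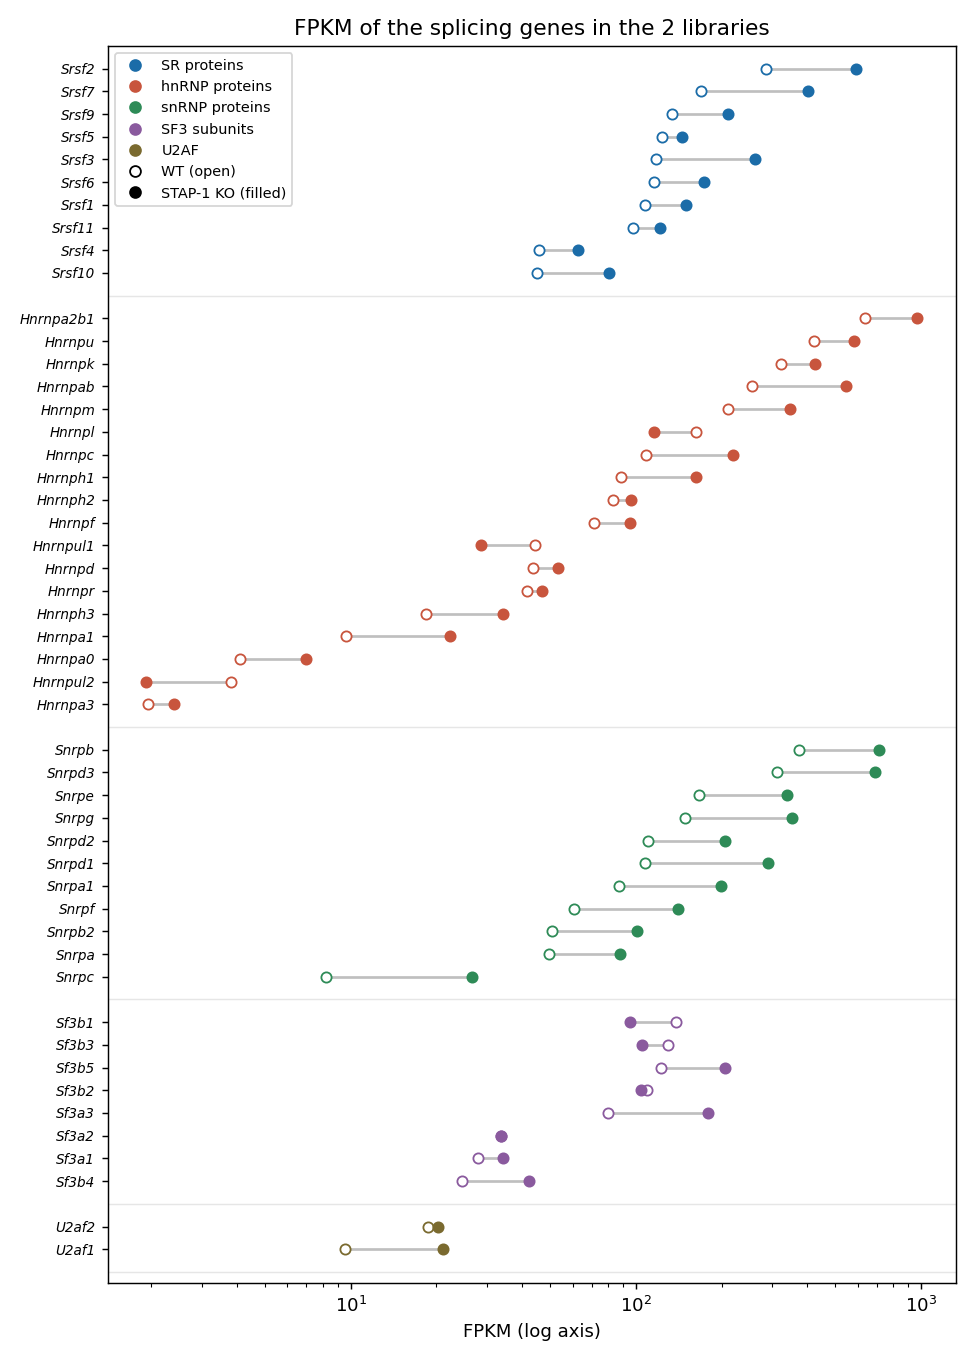
FPKM of 49 splicing genes (Srsf12 left out) on a log axis, grouped by class and ordered by the WT value, with open circles for the WT library and filled circles for the KO library, 1 library each. The filled circle lies to the right of the open one in all SR, snRNP and U2AF genes drawn, in 15 of 18 hnRNP genes and in 4 of 8 SF3 genes.

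The classes differed in their median log2 ratio, in the order snRNP proteins (1.14), U2AF (0.63), SR proteins (0.62), hnRNP proteins (0.45) and SF3 subunits (0.15). The count of genes at least 2-fold higher was 7 of 11 snRNP proteins, 3 of 10 SR proteins, 3 of 18 hnRNP proteins, 1 of 8 SF3 subunits and 1 of 2 U2AF subunits. Among all 12507 genes compared, 12.3% were at least 2-fold higher, and the hnRNP and SF3 counts lay near that share. All 11 snRNP and all 10 SR genes had a log2 ratio above 0, as had 15 of 18 hnRNP genes and 4 of 8 SF3 genes. The summed level of the snRNP class was 2.13-fold higher in the KO library, that of the SR class 1.77-fold, that of the hnRNP class 1.49-fold, that of U2AF 1.47-fold and that of the SF3 class 1.20-fold. The ranges of the classes overlapped, since snRNP genes lay between 0.83 and 1.69, SR genes between 0.23 and 1.25, hnRNP genes between -0.95 and 1.21 and SF3 genes between -0.54 and 1.16.

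The classes also differ in transcript length, and length moved with the log2 ratio across the transcriptome. The rank correlation of log2 ratio and log2 length was -0.40 across 10856 genes and -0.61 across the 49 splicing genes, where it was -0.43 in the 38 genes outside the snRNP class. The median transcript length was 1161 bases for the snRNP class, 2453 bases for SR, 2762.5 bases for hnRNP and 3531.5 bases for SF3, against 2859 bases for all genes. The annotated length of Sf3b5, 3841 bases, may be too long, and without this gene the SF3 median was 3222 bases. After the median of all genes in the same 1 of 20 length bins had been taken off, the median was 0.67 for snRNP, 0.75 for SR, 0.67 for hnRNP, 0.47 for SF3 and 0.21 for U2AF. The snRNP median was thus the highest on the deposited scale but not after this adjustment. When the length of the longest transcript of any kind was used in its place, the medians were 0.76 for hnRNP, 0.72 for snRNP, 0.67 for SR, 0.25 for U2AF and 0.20 for SF3, so that the order of snRNP, SR and hnRNP turned with the choice of length. The median of all splicing genes was 0.66 with the first adjustment and 0.62 with the second. With the first, 42 of 49 genes were above 0, but 3 genes had moved above 0 and 3 below. A log2 ratio of 1 was reached by 9 splicing genes (10.7% of all genes), of which Snrpc, Snrpd3, Srsf3 and Srsf7 were among the 15 counted on the deposited scale. The other 11 of the 15 did not reach it, and Hnrnpd, Hnrnpr, Hnrnpu, Srsf1 and Srsf10 were new. Of these, Hnrnpr rests on an annotated length of 21452 bases, the longest of all 50 genes, which may not be the length behind its FPKM. With the second, 10 genes reached it (10.8% of all genes), 5 of them among the 15.

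**Figure D2:**
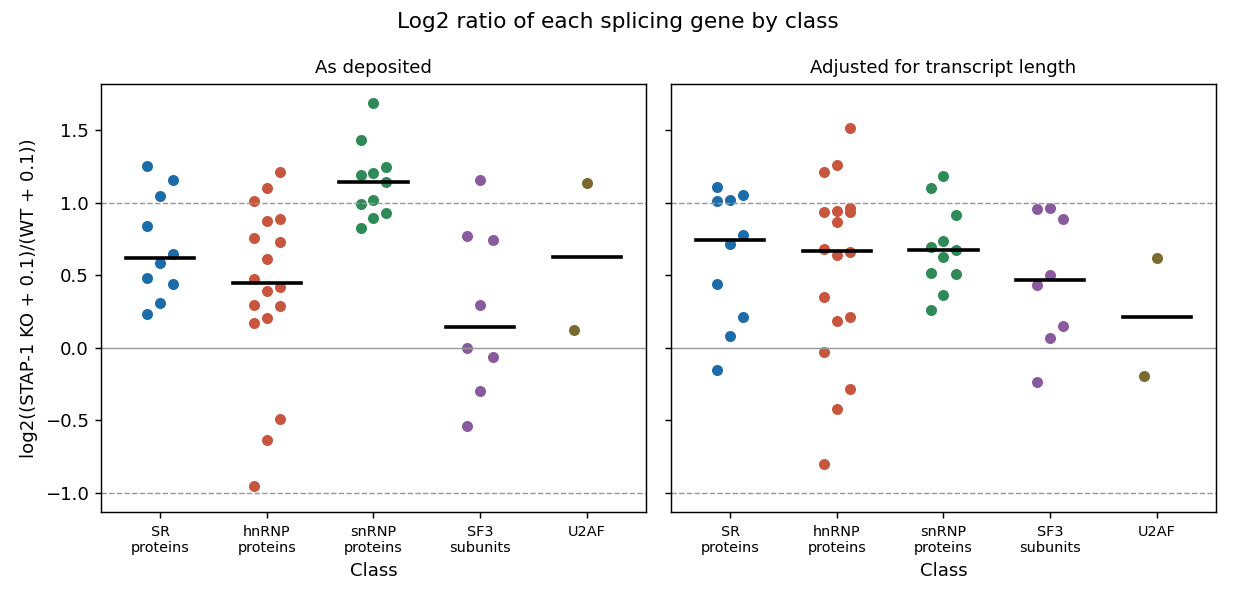
Log2 ratio of each splicing gene by class, as deposited (left) and after the median of all genes of like transcript length was taken off (right), with a horizontal bar at the class median and dashed lines at 2-fold. The medians run from 0.15 (SF3) to 1.14 (snRNP) on the left and from 0.21 (U2AF) to 0.75 (SR) on the right.

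Within groups of like length the median of the splicing genes was also above that of all genes. When all genes were divided by length into 4 groups of like size, the shortest group reached 1806 bases. There the median log2 ratio was 1.02 for 13 splicing genes and 0.48 for all 2712 genes. In the second group the medians were 0.88 for 18 splicing genes and 0.20 for all genes, and in the third group they were 0.58 for 9 splicing genes and -0.16 for all genes. In the longest group, from 4300 bases, the medians were 0.29 for 9 splicing genes and -0.76 for all genes. Single splicing genes lay below the median of all genes in each group. The lowest were at 0.23, -0.49, -0.63 and -0.95, from the shortest to the longest group.

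**Figure D3:**
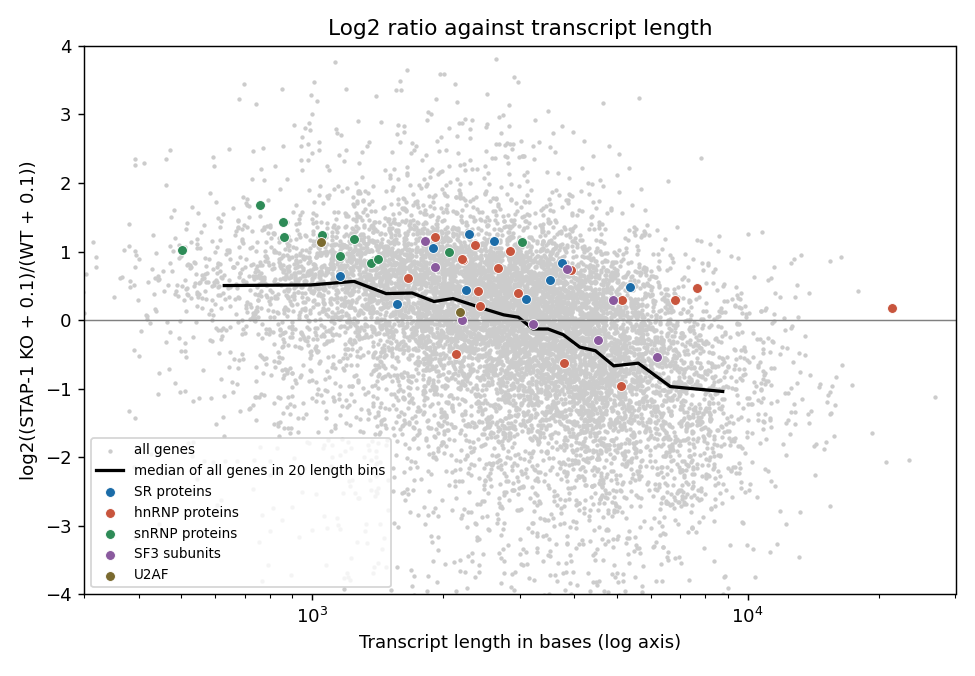
Log2 ratio against transcript length (log axis) for all genes that averaged 1 FPKM or more (grey), their median in 20 length bins (line) and the splicing genes coloured by class. The line goes down with length, and most splicing genes lie above it. Genes beyond a log2 ratio of 4 in size are not drawn.

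Upstream sequences were read for the genes at the ends of the 4 larger classes on the deposited scale, so that the promoters of genes with the highest and lowest unadjusted log2 ratios can be compared. The sequences are from RefSeq (GRCm38.p6), where 44 of the 50 genes had a window of 250 bases before to 50 bases after the start that was used here. Each is given 5′ to 3′ on the gene's strand as the 100 bases before the start, with 4 motifs in capitals: the E-box CACGTG (bound by MYC and related factors), the ETS motif CCGGAAG, the NRF1 motif CGCATGCG and the YY1 motif AANATGGCG, each searched on both strands. The highest and lowest snRNP genes are Snrpc at chr17:27839987-27840086 on the plus strand, and Snrpa at chr7:27196272-27196371 on the minus strand.
Snrpc: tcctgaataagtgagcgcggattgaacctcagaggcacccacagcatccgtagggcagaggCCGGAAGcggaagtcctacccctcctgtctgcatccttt
Snrpa: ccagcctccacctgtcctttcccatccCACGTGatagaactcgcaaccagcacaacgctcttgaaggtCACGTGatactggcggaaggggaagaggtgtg
The highest SR gene, Srsf7 at chr17:80207306-80207405 on the minus strand, is shown with the lowest, Srsf5 at chr12:80945399-80945498 on the plus strand.
Srsf7: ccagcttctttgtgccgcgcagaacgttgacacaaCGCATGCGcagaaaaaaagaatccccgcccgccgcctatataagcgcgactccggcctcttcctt
Srsf5: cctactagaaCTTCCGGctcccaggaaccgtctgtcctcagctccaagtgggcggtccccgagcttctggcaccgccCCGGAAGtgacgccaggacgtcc
The highest hnRNP gene is Hnrnpa1 at chr15:103240297-103240396 on the plus strand, and the lowest with a window is Hnrnpul1 at chr7:25754760-25754859 on the minus strand.
Hnrnpa1: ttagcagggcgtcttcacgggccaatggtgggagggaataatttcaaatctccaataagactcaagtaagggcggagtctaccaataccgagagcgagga
Hnrnpul1: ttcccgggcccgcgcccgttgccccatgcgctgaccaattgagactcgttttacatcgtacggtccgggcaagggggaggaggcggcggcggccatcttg
The SF3 class is represented by Sf3a3 at chr4:124714761-124714860 on the plus strand, which had the highest log2 ratio, and by Sf3b1 at chr1:55027479-55027578 on the minus strand, which had the lowest.
Sf3a3: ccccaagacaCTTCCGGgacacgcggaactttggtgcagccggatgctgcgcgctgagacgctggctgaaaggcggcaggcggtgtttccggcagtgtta
Sf3b1: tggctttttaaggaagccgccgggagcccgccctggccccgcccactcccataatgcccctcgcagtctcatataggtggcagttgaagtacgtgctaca

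In these stretches Snrpc holds 1 ETS match at position -39 from the start and Sf3a3 holds 1 at -90, but Srsf5, the lowest SR gene, holds 2, at -90 and -23. Srsf7 holds the NRF1 letters at -65, and Snrpa holds the E-box letters at -73 and -32. Hnrnpa1, Hnrnpul1 and Sf3b1 hold none of the 4 motifs there. Over the whole windows the ETS letters were found in 15 of 44 splicing genes (34.1%), against 21.4% of the 7891 genes with a window and a mean of at least 1 FPKM and 12.8% of all 15707 genes with a window. By class they were found in 5 of 6 SF3 genes, 4 of 9 snRNP genes, 4 of 11 SR genes and 2 of 17 hnRNP genes. The E-box was found in 6 of 44 splicing genes (13.6%) against 12.4% of expressed genes, of which 5 were hnRNP genes and 1 was Snrpa. The NRF1 letters were found in 3 genes (6.82% against 4.70%) and the YY1 letters in 2 (4.55% against 6.48%). Of the general promoter letters, the GC box GGGCGG was found in 72.7% of splicing genes against 69.2% of expressed genes, CCAAT in 52.3% against 43.6%, and TATAAA in 13.6% against 8.44%. CCAAT was found in 13 of 17 hnRNP genes, 4 of 11 SR genes, 3 of 9 snRNP genes and 2 of 6 SF3 genes. A match says only that the letters are in the window.

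The snRNP proteins include the 7 Sm proteins, which form the ring around the RNA of U1, U2, U4 and U5. All 7 had a log2 ratio above 0, and 5 were at least 2-fold higher in the KO library, against 12.3% of all genes. Their median transcript length was 1055 bases, in the range where the median of all genes was also above 0. With the first length adjustment Snrpd3 alone reached a log2 ratio of 1, and Snrpg was at 0.73, Snrpf at 0.69 and Snrpe at 0.52. Snrpd1 was at 108 FPKM in the WT and 290 FPKM in the KO library (log2 ratio 1.43), the highest log2 ratio in the ring on the deposited scale, whereas Snrpd3 was above it with both length adjustments (1.10 and 1.05 against 0.92 and 0.95). Snrpg went from 149 to 354 FPKM (1.25), Snrpf from 60.7 to 140 FPKM (1.21), Snrpd3 from 313 to 690 FPKM (1.14) and Snrpe from 167 to 339 FPKM (1.02). The remaining members, Snrpb with 374 and 712 FPKM (0.93) and Snrpd2 with 110 and 205 FPKM (0.90), did not reach 2-fold. The 7 proteins occur once each in the ring, and their mRNA levels spanned 6.16-fold in the WT and 5.08-fold in the KO library, with Snrpf lowest and Snrpb highest in both. The low end is uncertain, since 85.4% of the exon bases of Snrpf overlap other genes. Of the 75-base stretches, 18.8% of Snrpf, 24.0% of Snrpe and 16.0% of Snrpg also occur in another annotated gene. Snrpn, which codes for a close relative of SmB and lies outside the symbol rule, was at 0.766 and 1.17 FPKM.

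The other 4 snRNP genes code for particle-specific proteins. Snrpc, for the U1-C protein that stabilizes the pairing of U1 with the 5′ splice site, had the highest log2 ratio of all 50 genes on the deposited scale, 1.69, with 8.22 FPKM in the WT and 26.7 FPKM in the KO library. It was also the lowest snRNP gene in both libraries, and about 34 and 153 reads stood behind its values, so that counting error alone gives a 95% interval of 1.14 to 2.27 for the log2 ratio. With the first length adjustment (758 bases) Snrpc was at 1.18, below Hnrnpu at 1.51. With the second (6107 bases) it was at 2.27. Of its 75-base stretches, 15.4% also occur in other annotated genes. Snrpa1, for the U2-A′ protein, was at 87.2 and 199 FPKM (1.19). Snrpb2, for its partner U2-B″, was at 50.9 and 101 FPKM (0.99) and just missed 2-fold. Snrpa, for the U1-A protein, was at 49.7 and 88.2 FPKM (0.83). The remaining specific U1 protein, Snrnp70, is not covered by the symbol rule and was at 65.4 and 100 FPKM (0.61).

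The SR proteins carry RNA recognition motifs and a tail rich in arginine-serine dipeptides. The 3 genes past 2-fold were Srsf7 with 169 FPKM in the WT and 402 FPKM in the KO library (1.25), Srsf3 with 118 and 263 FPKM (1.16) and Srsf2 with 286 and 591 FPKM (1.05). Srsf3 and Srsf7 are the small shuttling SR proteins that also link splicing to mRNA export, and Srsf2, also called SC35, was the most abundant SR mRNA in both libraries. Srsf10, a regulator that represses splicing when it is dephosphorylated, was at 44.9 and 80.4 FPKM (0.84). Srsf9, Srsf6, Srsf1 (the archetypal factor ASF/SF2) and Srsf4 followed with log2 ratios of 0.65, 0.58, 0.48 and 0.44. This order turned with length, since Srsf9 was at 0.08 and 0.23 and Srsf1 at 1.11 and 1.02 with the 2 length adjustments. Srsf11 was at 98.0 and 121 FPKM (0.31) and Srsf5 at 124 and 146 FPKM (0.23). Srsf5 was at -0.16 with the first length adjustment and at 0.35 with the second.

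The hnRNP proteins were the most abundant class in sum, with 2526 FPKM in the WT and 3758 FPKM in the KO library over 18 genes. Their median level, 77.4 and 95.7 FPKM, was below that of SR (117 and 162 FPKM), snRNP (108 and 205 FPKM) and SF3 (94.6 and 100 FPKM). Without the top 1% of genes, SR had the largest summed share in the WT and snRNP in the KO library. The log2 ratios of the hnRNP genes had the widest full range of the classes, in the class with the most genes. Hnrnpa2b1, which codes for the core proteins A2 and B1, was the highest of all 50 genes in both libraries, with 635 and 969 FPKM (0.61). The 3 genes past 2-fold were Hnrnpa1 with 9.59 and 22.3 FPKM (1.21), Hnrnpab with 255 and 547 FPKM (1.10) and Hnrnpc with 109 and 220 FPKM (1.01). HNRNPA1 is a classic repressor of exon inclusion, and HNRNPC binds uridine tracts in nascent transcripts. The level listed for Hnrnpa1 was low beside Hnrnpa2b1, and 44.4% of its 75-base stretches also occur in other annotated genes, 13 of them pseudogenes. Hnrnpa3, at 1.94 and 2.40 FPKM (0.29), has 27.9% of its stretches elsewhere, in genes that include 36 pseudogenes, so that the listed levels of both are uncertain. With the 2 length adjustments Hnrnpa1 was at 0.94 and 1.12 and Hnrnpa3 at 0.96 and 0.83.

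The hnRNP genes of the H and F group, whose proteins bind guanine runs, were spread from 0.89 for Hnrnph3 (18.4 and 34.2 FPKM) and 0.87 for Hnrnph1 (88.6 and 162 FPKM) to 0.42 for Hnrnpf (71.3 and 95.4 FPKM) and 0.20 for Hnrnph2 (83.5 and 96.0 FPKM), the last of which was at -0.03 with the first length adjustment and at 0.37 with the second. Hnrnpm was at 210 and 348 FPKM (0.73) and Hnrnpa0 at 4.10 and 7.0 FPKM (0.76). The very abundant Hnrnpu, whose product also binds chromatin, was at 420 and 583 FPKM (0.47), and Hnrnpk, whose product binds cytidine-rich sequence, at 323 and 424 FPKM (0.39). Hnrnpd, for the AU-rich element binding protein AUF1, and Hnrnpr were at 0.29 and 0.17. These long transcripts moved most with length, since Hnrnpu was at 1.51 and 1.42, Hnrnpd at 1.26 and 1.23 and Hnrnpr at 1.21 and 1.17 with the first and second adjustment.

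A log2 ratio below 0 was found in 3 hnRNP genes. Hnrnpl, for a protein that binds CA repeats, was at 163 FPKM in the WT and 116 FPKM in the KO library (-0.49). Hnrnpul1 and Hnrnpul2, which code for relatives of HNRNPU, were at 44.4 and 28.6 FPKM (-0.63) and at 3.82 and 1.92 FPKM (-0.95). Hnrnpul2 lay just inside the 2-fold limit on the lower side, and with about 141 and 99 reads its counting interval ran from -1.38 to -0.61. All 3 were below 0 with both length adjustments, at -0.80, -0.42 and -0.29 with the first. Hnrnpu itself was above 0 throughout.

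The SF3 subunits were split. Of SF3A, Sf3a3 was at 80.1 and 179 FPKM (1.16) and was the only SF3 gene past 2-fold, whereas its partners Sf3a1 with 27.9 and 34.2 FPKM (0.29) and Sf3a2 with 33.7 and 33.6 FPKM (0.00) differed little on the deposited scale. With the 2 length adjustments Sf3a1 was at 0.96 and 0.77, above Sf3a3 at 0.88 and 0.76, and Sf3a2 was at -0.23 and -0.30. Of SF3B, the small subunits Sf3b4 with 24.6 and 42.1 FPKM (0.77) and Sf3b5 with 122 and 205 FPKM (0.75) had log2 ratios above 0. The large subunits had log2 ratios below 0, with 139 and 95.7 FPKM for Sf3b1 (-0.54), 129 and 105 FPKM for Sf3b3 (-0.30) and 109 and 105 FPKM for Sf3b2 (-0.06). SF3B1 is the scaffold that holds the branch point. The 3 large subunits have transcripts of 6195, 4525 and 3222 bases, and they were at 0.43, 0.15 and 0.07 with the first length adjustment and at 0.05, -0.04 and -0.07 with the second. Sf3b4, with 1915 bases, was at 0.50 and 0.35, and Sf3b5, with a listed length above that of Sf3b2, was at 0.96 and 0.81. Without Sf3b5 the SF3 median was -0.0017 on the deposited scale, 0.43 with the first adjustment and 0.05 with the second. Sf3a2 was above 0 when all ratios were centred on a median of 0. The further subunit Sf3b6, listed under an older clone symbol and outside the rule, was at 118 and 229 FPKM (0.96).

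Of the U2AF heterodimer, the small subunit U2af1, which reads the AG at the 3′ splice site, was at 9.54 and 21.05 FPKM (1.13), and the large subunit U2af2, which binds the pyrimidine tract, at 18.7 and 20.3 FPKM (0.12). The listed ratio of large to small subunit mRNA was thus 1.956 in the WT library, and in the KO library the small subunit was 1.04-fold above the large one. Of the 75-base stretches of U2af1, 53.9% occur in other annotated genes, the highest share of all 50 genes, and about 60 and 185 reads stood behind its values. With the first length adjustment U2af1 was at 0.62 and U2af2 at -0.19, and with the second they were at 0.61 and -0.12.

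In all, 20 of the 50 genes share over 10% of their 75-base stretches with other loci or over 10% of their exon bases with an overlapping gene. The largest exon overlaps were 85.4% for Snrpf, 43.0% for Srsf4, 29.1% for Hnrnpab, 26.5% for Hnrnpf and 25.3% for Srsf2. Without these 20 genes, 29 expressed genes remained, of which 6 were at least 2-fold higher and 0 lower (12.2% and 22.9% of all genes), with a median log2 ratio of 0.65. The class medians were then 1.06 for 6 snRNP genes, 0.62 for 6 SR genes, 0.47 for 11 hnRNP genes and 0.12 for 6 SF3 genes.

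The wider splicing machinery was described with 13 lists of 157 further genes. On the deposited scale, 11 of these 157 (7.01%) were at least 2-fold higher and 3 (1.91%) at least 2-fold lower, against 12.3% and 22.9% of all genes. With the first length adjustment most of the 11 were under a log2 ratio of 1. Other genes then reached it, up to 1.94, so that these shares hold for the deposited scale only. The median log2 ratio of the 154 genes that averaged 1 FPKM or more was 0.36, with 114 above 0. With the first length adjustment it was 0.37, with 117 above 0. The LSm ring proteins are relatives of the Sm proteins, and most of those listed bind U6 or take part in mRNA decay. Their list had the highest median on the deposited scale (0.75, 9 of 10 above 0) and a median of 0.37 with the first length adjustment. Lsm3 with 139 and 379 FPKM and Lsm2 with 70.6 and 189 FPKM passed 2-fold. The exon junction complex had a median of 0.73 with Magoh at 111 and 251 FPKM. The snRNP assembly factors had a median of 0.53, and 2 proteins of the SMN complex that loads the Sm ring, Gemin6 with 30.1 and 84.1 FPKM and Gemin2 (listed as Sip1, with no matched length) with 20.6 and 51.5 FPKM, passed 2-fold. The median was 0.45 for the PRP19 complex, where Ppie was at 41.7 and 87.9 FPKM, and 0.36 for the U4/U6.U5 tri-snRNP. With the first length adjustment Lsm3 (0.94), Lsm2 (0.91), Magoh (0.67), Gemin6 (0.92) and Ppie (0.51) were all under a log2 ratio of 1.

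The tri-snRNP proteins held both the highest and the lowest log2 ratio of the 154 genes on the deposited scale. With the first length adjustment the highest, 1.94, was in the list of other splicing regulators. The small proteins Ppih with 4.49 and 16.5 FPKM (1.85) and Nhp2l1 with 40.2 and 90.7 FPKM (1.17) were higher, as was Ddx23, which had a mean under 1 FPKM. Genes for 2 large proteins were lower, with 27.3 and 8.84 FPKM (-1.61) for Prpf8, whose product lies at the catalytic centre, and 46.6 and 11.2 FPKM (-2.04) for Snrnp200, which codes for the helicase that unwinds U4 from U6. With the first length adjustment Prpf8 and Snrnp200 were at -0.64 and -1.07, Ppih at 1.29 and Nhp2l1 at 0.86. The hnRNP proteins under other symbols had a median of 0.35, the U1 and LUC7 proteins 0.34, the U2 and branch point factors 0.33, the U12-type spliceosome 0.33 (Snrnp48 at 8.01 and 16.2 FPKM), other splicing regulators 0.21 and SR protein kinases and import factors 0.13. Snrnp48 was at 0.61 with the first length adjustment. Among the other regulators Taf15 was higher and Rbfox2 lower by more than 2-fold, both with a mean under 1 FPKM. The late-step helicases (-0.04) and the SR-related proteins (-0.09) lay near the median of all genes. With the first length adjustment the list order changed, since other splicing regulators had the highest median (0.63), followed by the U1 and LUC7 proteins (0.56), the exon junction complex (0.53), snRNP assembly (0.49) and the tri-snRNP (0.46), whereas the U12-type spliceosome and the late-step helicases were the lowest, both at -0.03.

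**Figure D4:**
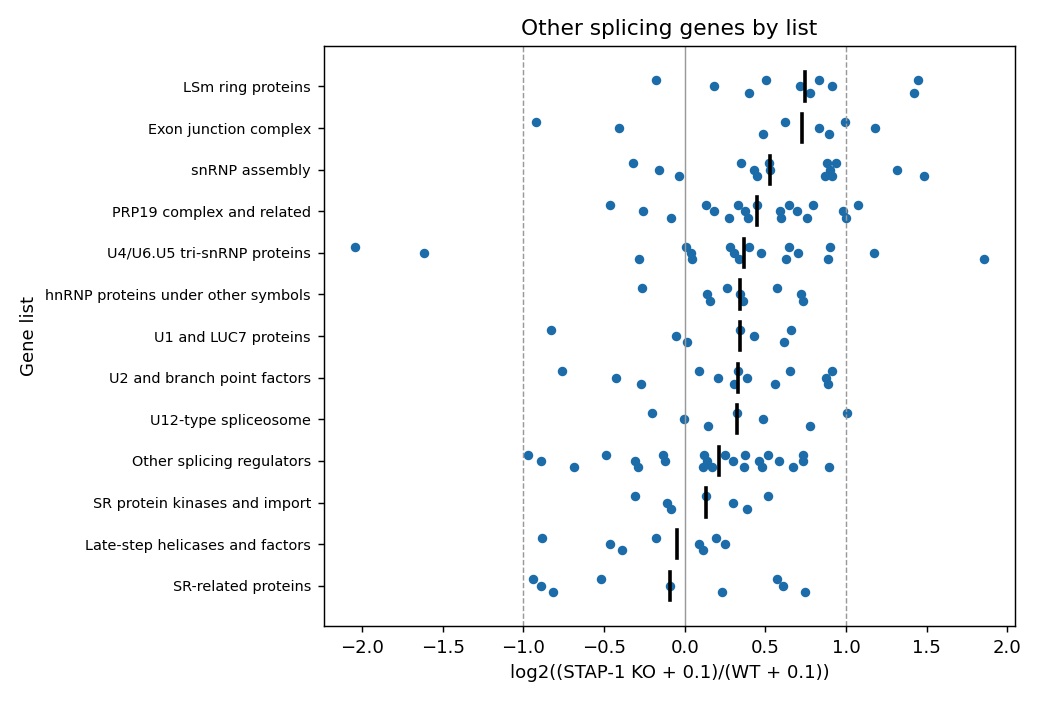
Log2 ratio of 154 further splicing genes that averaged 1 FPKM or more in 13 lists (points) with the median of each list (black bars) and dashed lines at 2-fold. List medians run from -0.09 (SR-related proteins) to 0.75 (LSm ring proteins), and the lowest points are Snrnp200 and Prpf8.

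The libraries differed in other genes along with the splicing genes. Mast cell markers such as Cpa3 (17984 and 1774.5 FPKM) had a median log2 ratio of -3.34 in 9 genes. Tpsab1 (-5.60), Tpsb2 (-5.25) and Hdc (-4.09) were the lowest of them, and the receptor gene Mrgprb1 was listed at 0 in the WT library and at 0.168 FPKM in the KO library. Primary granule genes of neutrophil precursors, led by Ms4a3 (41.5 and 460 FPKM), Prtn3 (57.4 and 525 FPKM) and Ctsg (104 and 841 FPKM), had a median of 3.01 over 5 genes. Cell cycle genes had a median of 0.97, with 14 of 15 above 0, of which Cdk1 (36.5 and 103 FPKM), Birc5 (118 and 276 FPKM) and Mcm5 (97.4 and 209 FPKM) were the highest on the deposited scale, while Mki67 was at 17.4 and 7.89 FPKM (-1.13). With the first length adjustment Mki67, with a transcript of 10061 bases, was at -0.09, and the cell cycle median was 0.85. Like Kit, the sort marker genes Ly6a (285 and 106 FPKM), for Sca-1, and Ptprc (107 and 38.2 FPKM), for CD45, were over 2-fold lower. With the first length adjustment Ptprc was at -0.82 instead of -1.49, inside the 2-fold limit, whereas Kit was at -3.33 and Ly6a at -1.94. The progenitor gene Cd34, which was not used in the sort, was at 281 and 194 FPKM. Of the mature granulocyte and red cell markers, Slc4a1, Ltf and Camp were over 2-fold lower (list median -1.86), and of the lymphoid markers Cd3g alone had a mean of at least 1 FPKM (log2 ratio 1.44). The part of cell composition and of proliferation in the splicing results was not tested, and in these bulk libraries a different share of cells of a type and a different amount of RNA per cell cannot be told apart. When the libraries were scaled to equal sums without the top 1% of genes, 12 splicing genes were at least 2-fold higher and 1 was lower, against 11.1% and 24.0% of all genes.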

How the data were processed

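RNA-seq was performed on 2 libraries, 1 of WT and 1 of STAP-1 KO CML LSCs. The authors made SMART-Seq v4 cDNA, sequenced single reads of 75 bases, mapped them to mm10 with TopHat2 2.0.13 and Bowtie2 2.2.3 and deposited FPKM values that Cuffnorm of Cufflinks 2.2.1 gave per gene symbol (SAMtools 0.1.19 per the labels). The gene annotation and the total reads are not given in the sources used here. Ratios, medians and counts were computed from these values with Python 3.11.15, numpy 2.4.6, pandas 2.3.3, scipy 1.17.1 and matplotlib 3.10.9, with a pseudocount of 0.1 FPKM for log2 ratios. Medians used genes that averaged 1 FPKM or more.

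Symbols were matched to GENCODE M21 (20911 as written, 1888 through an older symbol, 485 not matched). Transcript length is that of the longest transcript with a RefSeq match (first adjustment), or the longest of any kind (second). Effective depth was read from the steps of low FPKM values, of which 47.7% of 323 in the WT and 48.5% of 398 in the STAP-1 KO library lay within 0.01 of a whole read. These depths can include a scaling by Cuffnorm, and read numbers and intervals (exact binomial) carry counting error only. Whole reads were not recovered for most values, so no count test was run. The steps were tested on simulated data.

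The splicing genes, the 19 gene lists and the rule for named genes were chosen with earlier results of these data known. Named were all splicing genes, Stap1, the sort marker genes with Cd34, and of each other list up to 3 genes past 2-fold in each direction with a mean of at least 1 FPKM. Ddx23, Taf15, Rbfox2, Snrnp70, Snrpn, Sf3b6, Cpa3 and Mrgprb1 were named outside it. Alternatives changed the floor, the fold, the pseudocount, the scaling, the length adjustment and the genes included.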

Additional observations from a re-analysis of the deposited data

How the results depend on the processing

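No paired analysis was possible because each genotype had 1 library. All 15 splicing genes past 2-fold had a log2 ratio above 0 under every alternative, but 11 of them fell under a log2 ratio of 1 with the length adjustment and 10 with the length of the longest transcript. With the length adjustment the class medians were 0.75 for SR, 0.67 for hnRNP, 0.67 for snRNP, 0.47 for SF3, 0.21 for U2AF and 0.69 for the Sm ring, and 9 genes reached a log2 ratio of 1. With the longest transcript of any kind, an alternative added after seeing the data, as were the adjusted count and the removal of genes that share sequence, the medians were 0.62 for all splicing genes, 0.67 for SR, 0.76 for hnRNP, 0.72 for snRNP, 0.20 for SF3, 0.25 for U2AF and 0.72 for the Sm ring. A 1.5-fold limit gave 28 genes higher and 2 lower (25.6% and 32.8% of all genes), equal sums without the top 1% gave 1 lower, and removal of genes that share sequence left 6 higher. Without Sf3b5, also added later, the SF3 median was -0.0017 instead of 0.15, on the other side of 0. The cause of these shifts was not tested.

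Without transcripts under 200 bases the share of all FPKM was 0.213% in the WT and 0.424% in the STAP-1 KO library for SR, 0.433% and 0.724% for hnRNP, 0.253% and 0.606% for snRNP, 0.114% and 0.154% for SF3, and 0.00483% and 0.00797% for U2AF. Without the top 1% of genes the shares were 0.257% and 0.418% for SR, 0.240% and 0.321% for hnRNP, 0.213% and 0.453% for snRNP, 0.179% and 0.208% for SF3, and 0.00758% and 0.0107% for U2AF. No setting turned the order of the 2 libraries for any class share. The depth limits Srsf12, Snrpc, U2af1, Hnrnpa0, Hnrnpa3 and Hnrnpul2, which rest on the fewest reads.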
